A study of Mus musculus with 15 samples.

Results

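The genes described here encode the subunits of V1, the ATP-splitting part of the vacuolar proton pump (V-ATPase), in the trigeminal ganglion (TG) of the mouse after an injury to the cornea. They are the 9 genes Atp6v1a, Atp6v1b2, Atp6v1c1, Atp6v1d, Atp6v1e1, Atp6v1f, Atp6v1g1, Atp6v1g2 and Atp6v1h, chosen by symbol from the 55573 genes of the count table. All animals were male CD1 mice, 10 weeks old, and in every group, the control included, the epithelium and anterior stroma of the right cornea had been removed. The eye was then treated 3 times a day, and the TG of the injured side was taken on day 12. The 5 vehicle samples (replicates 1 to 5) are the controls. The 5 RvD6-standard samples (replicates 6 to 10) received resolvin D6, a lipid mediator made from docosahexaenoic acid (RvD6 in the study), and the 5 RvD6-isomer samples (replicates 11 to 15) received the stereoisomer that the study calls RvD6si. The dose of the lipids for this experiment is not given in the sources used here, and there was no uninjured group. Nothing states that each sample was a single mouse, so p-values measure the spread between these samples, which may be partly technical. The comparisons ask how the TG, which holds the cell bodies of the corneal sensory nerves, responded to each lipid applied to the eye.

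The V-ATPase uses ATP to move protons into lysosomes, endosomes and synaptic vesicles. In V1 the A and B subunits form a ring in which ATP is split at the A subunits, the D and F subunits form the shaft that turns inside it, and the E and G subunits form the outer stalks that keep the ring from turning. The C subunit ties the stalks to the membrane part of the pump, V0, and the H subunit restrains ATP splitting when V1 is detached from V0. In neurons the proton gradient loads neurotransmitters into vesicles and acidifies the lysosomes and endosomes of the axon, and the G subunit has a form enriched in neurons, encoded by Atp6v1g2, beside the widely used form encoded by Atp6v1g1.

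Of the 9 members, the G subunit genes had the lowest fold changes in RvD6-isomer against vehicle, and their coding sequences differ. The coding sequences of the transcripts Atp6v1g1-201 and Atp6v1g2-201 have 354 bases each and are identical at 229 aligned bases (64.7%), and the longest identical run is 11 bases, far shorter than a read. The first 60 coding bases of both are shown 5′ to 3′ on the coding strand, with the 9 bases that differ in capitals.
Atp6v1g1, GRCm38 chr4:63544918-63544977, plus strand: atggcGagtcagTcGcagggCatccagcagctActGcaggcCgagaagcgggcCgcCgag
Atp6v1g2, GRCm38 chr17:35236764-35236823, plus strand: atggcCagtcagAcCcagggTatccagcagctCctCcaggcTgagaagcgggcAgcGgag

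Some members share sequence with other genes. Of the 75-base windows in the transcripts of Atp6v1g1, 12.5% also occur in the transcripts Gm12344 or Gm13453, and Gm13453 held 165 to 935 reads per sample. How reads from the shared windows were assigned was not examined, so the values of Atp6v1g1 are less certain. The share was 5.09% for Atp6v1f, with AC169506.3, and 2.83% for Atp6v1g2, with Nfkbil1, and at most 0.548% for the other members. Atp6v1g2 and Nfkbil1 lie on opposite strands and share 144 exonic bases, 5.74% of the exonic length of Atp6v1g2. Strand was not used in the counting, and Nfkbil1 averaged only 18.1 ± 8.02 normalized counts in vehicle and 21.98 ± 12.1 in RvD6-isomer (SD, n = 5), against 656 or more reads of Atp6v1g2 in every sample. The other exonic overlaps were 32 bases of Atp6v1e1 with Slc25a18 and 127 bases of Atp6v1h with Rgs20.

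Promoters of 5 of the 9 genes were found in the RefSeq table for GRCm38.p6 (6 promoters, since Atp6v1g2 has 2). The motif TCACGTGA, a sequence of the kind bound by the lysosomal transcription factors of the MiT/TFE family, was in 1 of the 6, that of Atp6v1a, and in 0.974% of all 32851 promoters of this length. Its inner part CACGTG was in 7.15% of all promoters and in the same member promoter. The motif is a palindrome, so both strands read the same. The stretch around it is shown because Atp6v1a was the one member with every RvD6-isomer sample above every vehicle sample. The capitals mark the match, 132 to 125 bases before the RefSeq start. In the annotation of the counts the gene reaches to base 44139705, so this stretch lies within the gene there, outside its exons.
Atp6v1a, GRCm38.p6 chr16:44139358-44139417, minus strand: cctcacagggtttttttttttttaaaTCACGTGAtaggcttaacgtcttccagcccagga
The motif GGGCGG, read on both strands, was in 4 of the 6 member promoters and in 35.7% of all promoters. A match describes the letters only, and binding was not measured.

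Libraries held 4125962 to 9903396 counted reads, with medians of 9147139 in vehicle, 7235362 in RvD6-standard and 6862705 in RvD6-isomer. Markers of the labelled tissue were present in all samples. The summed level of 10 neuron markers was 15699 to 17739 CPM (read counts scaled to a library of 1000000 reads) in vehicle, 9109 to 16411 in RvD6-standard and 14022 to 18301 in RvD6-isomer, so 4 of the 5 RvD6-standard samples lay below every vehicle sample. Markers of other cells were high in RvD6-standard. The summed level of 6 skeletal muscle markers was 75.8 to 2238 CPM there, against 16.3 to 142 in vehicle and 8.61 to 26.8 in RvD6-isomer. The 6 erythroid markers summed to 3777 to 6857 CPM in RvD6-standard and 1546 to 3225 in vehicle, and the 7 neutrophil and precursor markers to 573 to 1823 and 86.2 to 474. RvD6-isomer replicate 15 stood apart from its group, with 7217 CPM of erythroid and 1704 CPM of neutrophil markers, against 620 to 1718 and 43.3 to 94.1 in the other 4. The part of these cells in the results was not tested. In bulk tissue, fewer cells of a type and less RNA per cell cannot be told apart.

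**Figure D1:**
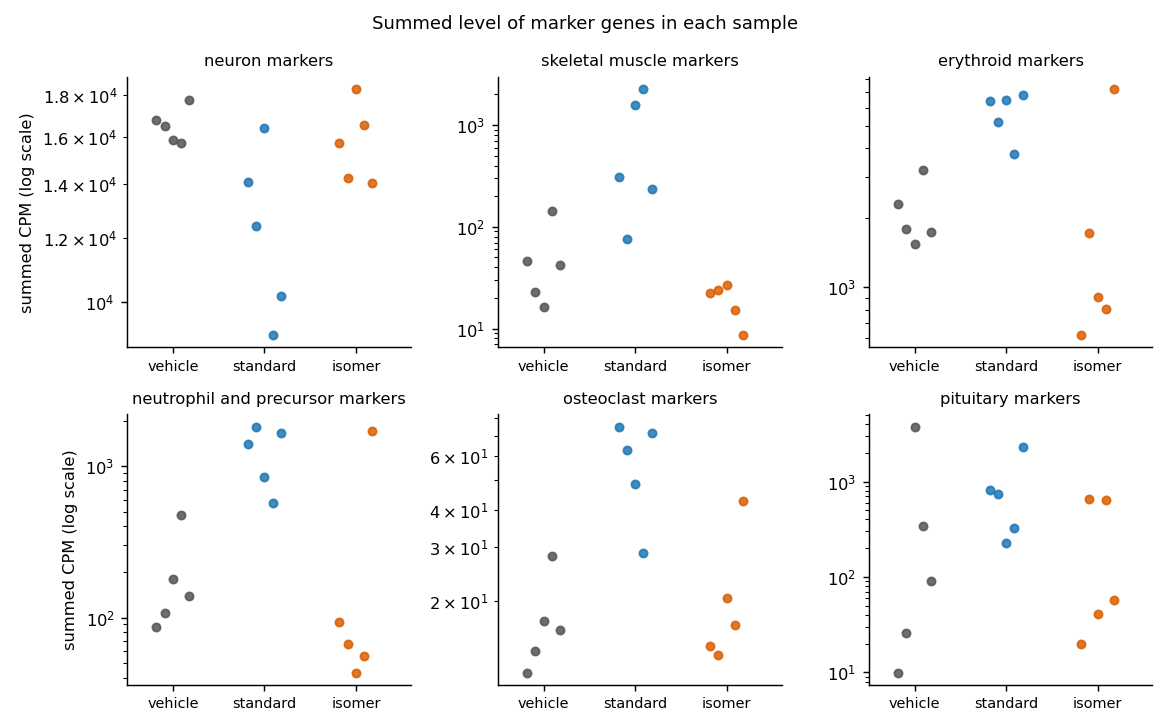
Summed CPM (log scale) of the marker genes of 6 cell types in each of the 15 samples, by treatment; each point is a sample. RvD6-standard samples lie above all vehicle samples for erythroid, neutrophil and osteoclast markers, and RvD6-isomer replicate 15 lies with them.

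All 9 genes had reads in every sample, 613 to 6319 per gene and sample, and all passed the filter on low counts. Per kilobase of exon, the vehicle means ran from 205 ± 22.1 CPM per kilobase for Atp6v1g1, through 159 for Atp6v1f, 137 for Atp6v1e1, 107 for Atp6v1g2, 93.2 for Atp6v1b2, 70.8 for Atp6v1a, 48.0 for Atp6v1c1 and 36.7 for Atp6v1d, to 26.7 ± 3.66 for Atp6v1h (SD, n = 5). Among neighbours in this order, the ranges of the 5 vehicle samples overlapped except between Atp6v1g1 and Atp6v1f and between Atp6v1a and Atp6v1c1. The order rests on which length is used. Per kilobase of the longest coding transcript, an alternative chosen after seeing the data, Atp6v1e1 led with 428 ± 24.1, Atp6v1f had 209 and Atp6v1g1 205, and Atp6v1d was lowest with 46.1 ± 5.61 (SD, n = 5). With either length Atp6v1g2 was below Atp6v1g1 in the vehicle mean.

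**Figure D2:**
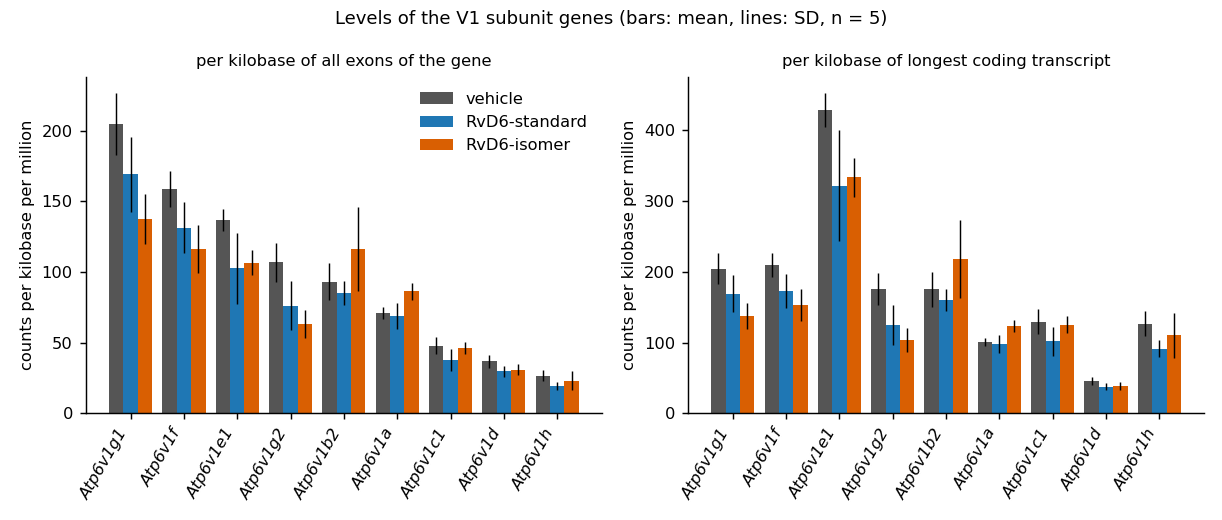
Mean level of each V1 subunit gene in CPM per kilobase, with SD (n = 5 samples a group), per kilobase of all exons (left) and of the longest coding transcript (right). In both panels Atp6v1g2 and Atp6v1g1 are lowest in RvD6-isomer and Atp6v1a and Atp6v1b2 are highest there.

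Of the tissue-restricted forms of V1 subunits, Atp6v1e2 and Atp6v1g3 had no read in any sample, Atp6v1b1 had at most 4 and Atp6v1c2 at most 48. None passed the filter, so the 9 genes are the V1 genes that could be tested in these ganglia.

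In RvD6-isomer against vehicle, Atp6v1g2 fell and was the only member past the threshold (1 of 9, where 0.670% of the 16567 genes tested were called in either direction). Of the 9 members, 7 had fold changes below 0, with a median of -0.25 on the log2 scale against 0.015 over all genes. At an unadjusted p below 0.05, 4 members were lower (7.30% of all genes) and 1 was higher (8.69%). In 4 members, Atp6v1e1, Atp6v1f, Atp6v1g1 and Atp6v1g2, every RvD6-isomer sample lay below every vehicle sample (2.40% of all genes), and in 1, Atp6v1a, every one lay above (2.48%).

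Atp6v1g2 (chr17:35233660-35238767, plus strand) encodes the G subunit form enriched in neurons. Its normalized counts were 1665, 1855, 2349, 1902 and 1839 in vehicle replicates 1 to 5 and 1474, 1096, 1078, 995 and 1066 in RvD6-isomer replicates 11 to 15. The highest treated sample, replicate 11, was still below the lowest control. The means were 1922 ± 255 and 1142 ± 189 (SD, n = 5), and the log2 fold change was -0.76 ± 0.15 (SE), 0.592-fold of vehicle, with a 95% interval of -1.08 to -0.43 and an adjusted p of 0.0346 by edgeR's quasi-likelihood test. The direction held in all 15 fits that left out a sample, with log2 fold changes of -0.86 to -0.67, but the call did not. The adjusted p was 0.0523, 0.0742, 0.116, 0.0823 and 0.0857 without vehicle replicates 1 to 5, and 0.0698, 0.0713, 0.101 and 0.0545 without RvD6-isomer replicates 11, 13, 14 and 15. In these fits the calls over all genes were 0 to 87, against 111 with all samples. Nfkbil1 on the other strand had a log2 fold change of 0.27 ± 0.55 (SE, adjusted p = 0.860 by edgeR), too imprecise to give it a direction.

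Atp6v1g1 (chr4:63544772-63550750, plus strand), the widely used form of the same stalk subunit, was 1663, 1461, 1729, 1541 and 1929 normalized counts in vehicle and 887, 1175, 1239, 1201 and 1110 in RvD6-isomer, with no overlap. Its log2 fold change of -0.57 ± 0.14 (SE) missed the threshold with an adjusted p of 0.0611 by edgeR, and passed it without RvD6-standard replicate 9 (adjusted p = 0.0358). In that fit the calls over all genes were 229 of 17013, against 111 of 16567 with all samples. Replicate 9 had the highest muscle markers, and the cause of this move was not tested. Gm13453, which shares sequence with Atp6v1g1, averaged 517 ± 144 normalized counts in vehicle and 369 ± 87.3 in RvD6-isomer (SD, n = 5). Atp6v1e1 (chr6:120794305-120822793, minus strand), the partner of the G subunits in the stalks, was 3810 to 4350 in vehicle and 2937 to 3513 in RvD6-isomer, a log2 fold change of -0.36 ± 0.14 (SE, adjusted p = 0.210 by edgeR). All 3 stalk genes were thus lower in each RvD6-isomer sample than in any vehicle sample.

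Both shaft genes had fold changes below 0. Atp6v1f (chr6:29467718-29470512, plus strand) was 1097, 1142, 1268, 1197 and 1346 normalized counts in vehicle and 734, 1053, 813, 847 and 996 in RvD6-isomer, again with no overlap. Its log2 fold change was -0.45 ± 0.13 (SE, adjusted p = 0.104 by edgeR). Atp6v1d (chr12:78840725-78861638, minus strand) overlapped between the groups, with 986 to 1360 in vehicle and 872 to 1169 in RvD6-isomer, and had a log2 fold change of -0.25 ± 0.14 (SE, adjusted p = 0.389 by edgeR).

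The 2 ring genes lay on the other side of 0. Atp6v1a (chr16:44085402-44139705, minus strand), which encodes the ATP-splitting subunit, was 2920, 3291, 3176, 2850 and 3102 normalized counts in vehicle and 4045, 3832, 3938, 3485 and 3453 in RvD6-isomer. All treated samples were above all controls, yet the log2 fold change of 0.29 ± 0.11 (SE) did not pass the threshold (adjusted p = 0.208 by edgeR). Atp6v1b2 (chr8:69088646-69113711, plus strand), its partner in the ring, was more spread, with 2797 to 4138 in vehicle and 3112 to 5768 in RvD6-isomer, and its log2 fold change was 0.32 ± 0.16 (SE, adjusted p = 0.345 by edgeR).

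The genes of the C and H subunits, which link V1 to V0 and regulate it, had 95% intervals that include 0. So did Atp6v1b2 (-0.02 to 0.65) and Atp6v1d (-0.54 to 0.04). Atp6v1c1 (chr15:38661933-38692446, plus strand) had a log2 fold change of -0.05 with a 95% interval of -0.35 to 0.25. Atp6v1h (chr1:5070018-5162529, plus strand) had -0.21 with an interval of -0.60 to 0.18, and its RvD6-isomer samples ranged from 869 in replicate 12 to 2063 in replicate 14, wider than the 1560 to 2271 of vehicle.

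**Figure D3:**
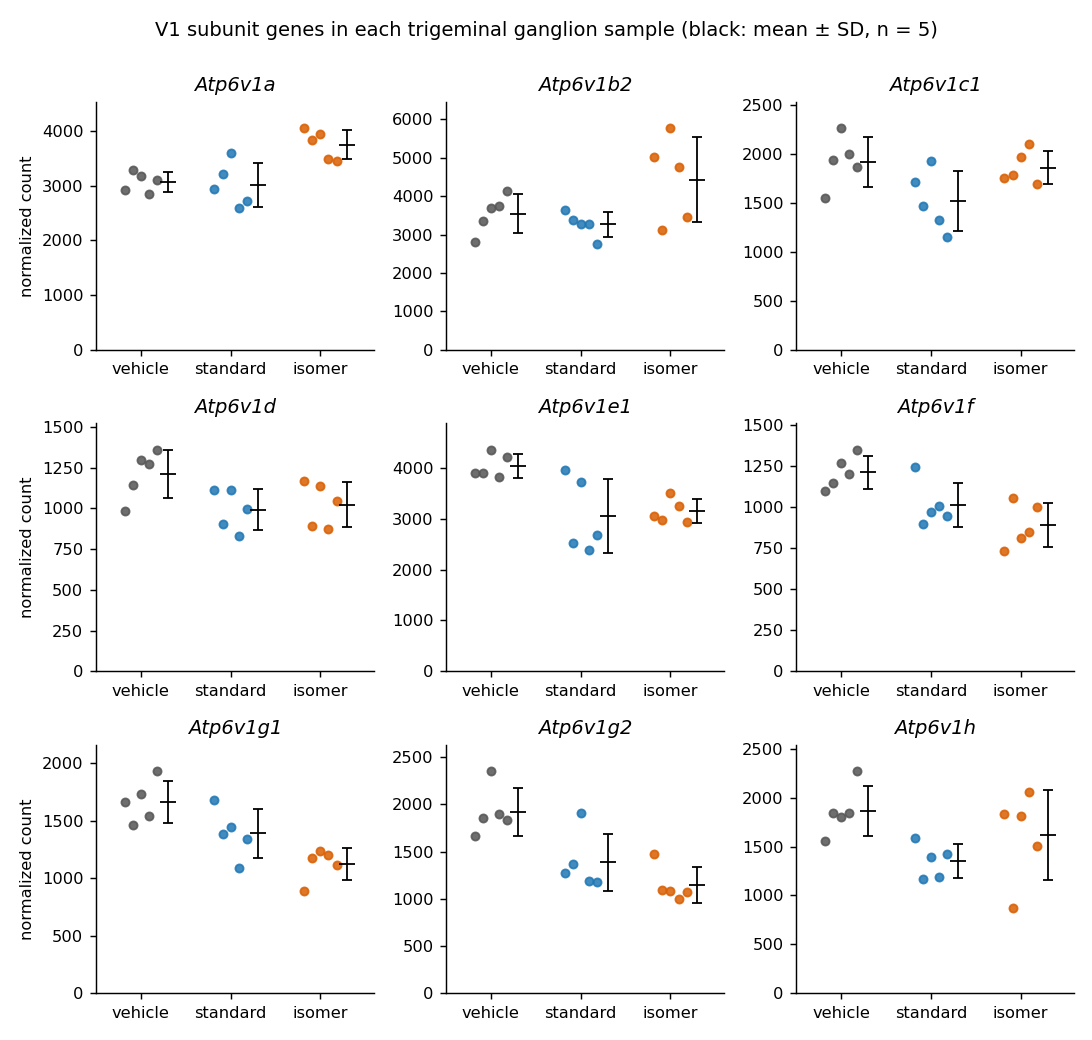
Normalized counts (counts divided by the size factor of the sample) of the 9 V1 subunit genes in each sample, with the mean and SD (n = 5) in black; each panel has its own axis from 0. RvD6-isomer samples lie wholly below vehicle for Atp6v1e1, Atp6v1f, Atp6v1g1 and Atp6v1g2 and wholly above it for Atp6v1a.

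DESeq2, the tool of the study's own analysis, called 3 of the 9 members in this comparison, Atp6v1f (adjusted p = 0.0164), Atp6v1g1 (0.00230) and Atp6v1g2 (0.000393), all lower, where it called 8.13% of the 11321 genes it gave an adjusted p. Fold changes were near those of edgeR.

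RvD6-standard was compared with the same 5 vehicle samples, and no member passed the threshold. The count was 0 of 9 by edgeR, which called 0% of all genes, and 0 of 9 by DESeq2, which called 1.92% of 19190. All 9 fold changes were below 0, from -0.04 for Atp6v1a to -0.49 for Atp6v1g2, with a median of -0.30 against 0.024 over all genes. At an unadjusted p below 0.05, 5 members were lower (5.99% of all genes) and 0 were higher. No member was free of overlap between the groups (1.47% of all genes had every RvD6-standard sample below every vehicle sample).

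Atp6v1g2 was 1276, 1368, 1914, 1189 and 1179 normalized counts in RvD6-standard replicates 6 to 10. Replicate 8 lay within the vehicle range and the other 4 below it, and the log2 fold change was -0.49 ± 0.15 (SE, adjusted p = 0.191 by edgeR). Atp6v1h was 1585, 1169, 1398, 1187 and 1429, with only replicate 6 above the lowest vehicle sample, and a log2 fold change of -0.47 ± 0.19 (SE, adjusted p = 0.285 by edgeR). Atp6v1e1 split into 3957 and 3713 in replicates 6 and 8, near vehicle, and 2529, 2376 and 2683 in the other 3, with a log2 fold change of -0.41 ± 0.14 (SE, adjusted p = 0.219 by edgeR). Atp6v1c1 had -0.35 ± 0.14 and Atp6v1d -0.30 ± 0.14 (SE), both at an unadjusted p below 0.05. Of 10 neuron markers, 5 were lower in RvD6-standard against vehicle at an unadjusted p below 0.05 by edgeR (5.99% of all genes). The median log2 fold change of the 10 was -0.38, while Elavl4 (0.39) and Rbfox3 (0.13) were above 0. Their summed level was lowest in replicates 9 and 10, at 9109 and 10193 CPM, and that of replicate 8 lay within the vehicle range. The part of the neuron markers in the V1 values was not tested.

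The lipids themselves were compared on the same day and schedule, though whether their doses were equal is not given. Of the 9 differences between RvD6-isomer and RvD6-standard, adjusted over all genes tested, 0 passed the threshold (0.235% of all genes did). DESeq2 also called 0 of the 9, where it called 0.936% of 19769 genes. At an unadjusted p below 0.05, 2 members were higher in RvD6-isomer (4.18% of all genes) and 1 was lower (4.64%). The ring genes were the higher ones. Atp6v1a had a log2 difference of 0.33 with a 95% interval of 0.10 to 0.56 (adjusted p = 0.339 by edgeR), and Atp6v1b2 0.45 with an interval of 0.11 to 0.78 (adjusted p = 0.381). Atp6v1a was 2939, 3205, 3592, 2584 and 2721 normalized counts in RvD6-standard, and only replicate 8 reached the RvD6-isomer range. Atp6v1g1 was the lower one, at -0.30 with an interval of -0.59 to -0.01 (adjusted p = 0.540 by edgeR).

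For the other 6 genes the interval of the difference between the lipids included 0. Atp6v1g2, which fell only with RvD6-isomer by the test, differed between the lipids by -0.27 with an interval of -0.59 to 0.05, so a difference between their effects on it was not shown. The intervals were -0.24 to 0.34 for Atp6v1d, -0.24 to 0.35 for Atp6v1e1, -0.46 to 0.10 for Atp6v1f and -0.12 to 0.66 for Atp6v1h, and that of Atp6v1c1 reached from just below 0 to 0.61.

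**Figure D4:**
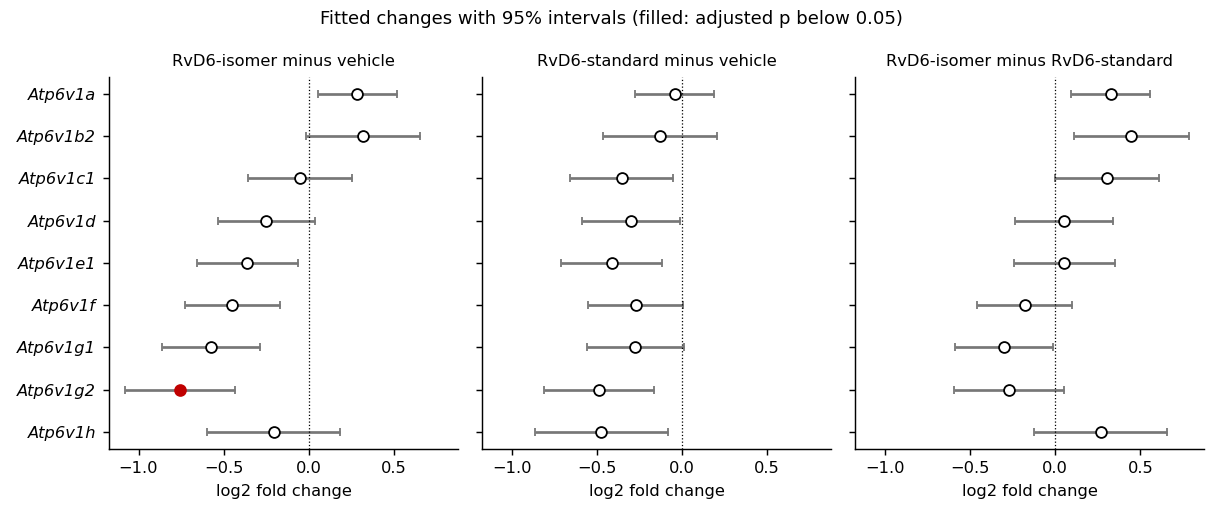
Log2 fold change (horizontal axis) of each V1 subunit gene in the 3 comparisons, with 95% intervals from edgeR's fit of all 15 samples; filled points passed an adjusted p of 0.05. Atp6v1g2 in RvD6-isomer against vehicle is the single filled point; both comparisons with vehicle use the same 5 vehicle samples.

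The balance between subunits was read from ratios within a sample, which no scaling of libraries can change. Each gene was set against Atp6v1a, per kilobase of exon, as a description without a test. In RvD6-isomer, 5 of the 8 ratios lay below vehicle in every sample, those of Atp6v1d, Atp6v1e1, Atp6v1f, Atp6v1g1 and Atp6v1g2 (8.46% of all genes, set against Atp6v1a in the same way, did so). Since Atp6v1a itself was higher in RvD6-isomer, these ratios join the changes of both genes.

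The ratio of Atp6v1g2 to Atp6v1a separated all 3 groups. Its log2 values were 0.46, 0.44, 0.83, 0.68 and 0.51 in vehicle, 0.06, 0.04, 0.36, 0.15 and 0.06 in RvD6-standard and -0.19, -0.54, -0.60, -0.54 and -0.43 in RvD6-isomer. Every RvD6-standard sample was below every vehicle sample (1 of 8 members, 1.06% of all genes), and every RvD6-isomer sample was below every RvD6-standard sample (2 of 8, with Atp6v1g1, 4.12% of all genes). The means were 0.59 ± 0.17, 0.13 ± 0.13 and -0.46 ± 0.16 (SD, n = 5). RvD6-standard replicate 8 and RvD6-isomer replicate 11, which had the most Atp6v1g2 in their groups, kept their place in this order. RvD6-isomer replicate 15, with the high erythroid markers, had -0.43, inside the range of its group.

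The ratio within the ring pair overlapped between the groups. The log2 ratio of Atp6v1b2 to Atp6v1a was 0.39 ± 0.21 in vehicle, 0.31 ± 0.20 in RvD6-standard and 0.39 ± 0.35 in RvD6-isomer (SD, n = 5). The ratios of the 2 forms of the G subunit overlapped as well, with log2 values of Atp6v1g2 to Atp6v1g1 of -0.94 ± 0.22, -1.16 ± 0.31 and -1.12 ± 0.41 (SD, n = 5). RvD6-isomer replicate 11 was highest in this ratio at -0.41, since it had the most Atp6v1g2 and the least Atp6v1g1 of its group.

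**Figure D5:**
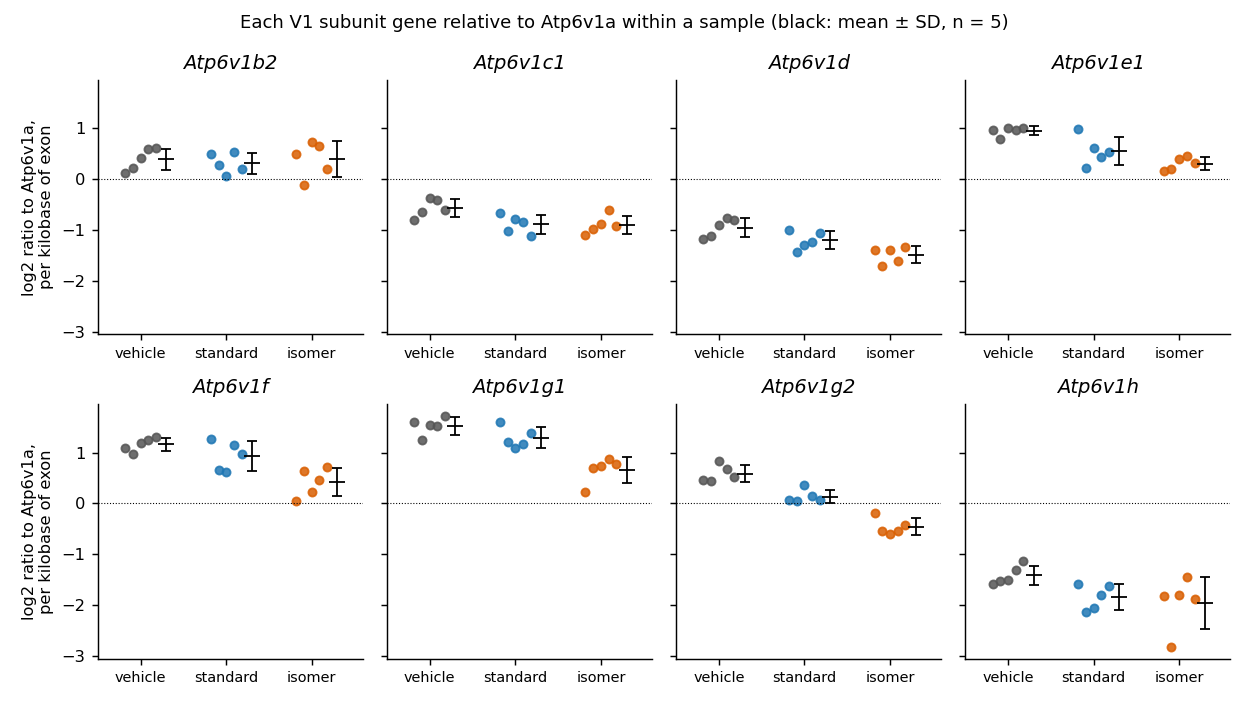
Log2 ratio of each V1 subunit gene to Atp6v1a, per kilobase of exon, in each sample, with the mean and SD (n = 5) in black. The 3 groups do not overlap for Atp6v1g2, and RvD6-isomer samples are also below all vehicle samples for Atp6v1d, Atp6v1e1, Atp6v1f and Atp6v1g1.

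Fold changes followed gene length among the members. Exonic lengths ran from 1063 bases for Atp6v1f and 1135 for Atp6v1g1 to 6044 for Atp6v1a and 9746 for Atp6v1h, and short members were the lower ones in RvD6-isomer. Across the 9 genes, which are not independent replicates, Spearman's rho between exonic length and the log2 fold change was 0.783 in RvD6-isomer against vehicle, 0 in RvD6-standard against vehicle and 0.783 in RvD6-isomer against RvD6-standard. Over all 16567 genes it was 0.290, 0.246 and 0.0748. After each sample's trend on gene length was removed, Atp6v1g2 had a log2 fold change of -0.65 in RvD6-isomer against vehicle and an adjusted p of 0.0601 by edgeR, so that 0 of 9 members were called. In the same fit Atp6v1a had 0.15, Atp6v1b2 0.18, Atp6v1c1 -0.18, Atp6v1f -0.24, Atp6v1g1 -0.37 and Atp6v1h -0.35, each moved by over 1.5 times, while Atp6v1d had -0.36 and Atp6v1e1 -0.45. The rho among the members was then 0.5, -0.32 and 0.8 in the 3 comparisons, and over all genes within 0.01 of 0. Whether length or the treatment sets this order was not tested.

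The rest of the pump and its regulators held 0 called genes in each comparison by edgeR. Over all genes, 0.670% were called in RvD6-isomer against vehicle, 0% in RvD6-standard against vehicle and 0.235% between the lipids. Of 10 V0 genes, 9 were tested, and at an unadjusted p below 0.05 there were 1 higher and 1 lower in RvD6-isomer against vehicle (8.69% and 7.30% of all genes), 2 and 1 in RvD6-standard against vehicle (7.63% and 5.99%) and 0 and 1 in RvD6-isomer against RvD6-standard (4.18% and 4.64%). Their median log2 fold changes were -0.27, -0.14 and -0.0028, beside -0.25, -0.30 and 0.05 for the V1 genes. Atp6v0e2, a small V0 subunit, was 4778 ± 695 normalized counts in vehicle, 3268 ± 568.5 in RvD6-standard and 3495 ± 562 in RvD6-isomer (SD, n = 5), with an adjusted p of 0.137 for RvD6-isomer by edgeR. Atp6v0a1, the form of the large V0 subunit found in nerve terminals, was 136 ± 36.4, 251 ± 142 and 265 ± 141 (SD, n = 5), with an adjusted p of 0.182.

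Of the accessory subunits, Atp6ap1 had a log2 fold change of -0.24 and Atp6ap2, also known as the prorenin receptor, of 0.17 in RvD6-isomer against vehicle. The V0 assembly factors Ccdc115 and Tmem199 had -0.26 and -0.21, and in the RAVE group, which rejoins V1 and V0, Rogdi had -0.32 and Dmxl2 0.18. Among TLDc domain proteins, of which several bind V1, Ncoa7 had 0.68 (adjusted p = 0.239 by edgeR) and Oxr1 0.27. Of these groups 2, 3, 4 and 4 genes were tested.

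Ragulator and the Rag GTPases signal amino acid supply from the lysosome to mTORC1 beside the pump. All 10 genes of their list, which also holds a gene outside both groups, were tested. At an unadjusted p below 0.05, 2 were lower in RvD6-isomer against vehicle (7.30% of all genes). These were Lamtor5, at -0.42 (adjusted p = 0.165 by edgeR), and Rragb, at -1.29 (adjusted p = 0.231) with 25.1 ± 13.6 normalized counts against 61.5 ± 21.5 (SD, n = 5). Of the MiT/TFE factors 3 were tested, and Tfeb had 0.82 (adjusted p = 0.469 by edgeR) and Mitf 0.33. Of the transporters that use the proton gradient of vesicles 3 were tested, and Slc17a6, the vesicular glutamate transporter of sensory neurons, had 0.27 and Slc18a2 0.53.

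The V1 genes varied together across samples only in part. The largest Pearson r among the 36 pairs over the 15 samples was 0.821, between Atp6v1f and Atp6v1g1, and Atp6v1a was negatively correlated with Atp6v1f (-0.51), Atp6v1g1 (-0.43) and Atp6v1g2 (-0.16). After group means were removed, Atp6v1a and Atp6v1g2 had an r of 0.770. The genes whose log2 CPM over the 15 samples was most like the mean of the 9 members were Cct7 (r = 0.976), Vdac3 (0.952), Uqcrc2 (0.950), Gm12428 (0.948) and Slc9a3r2 (0.945), the highest among 16558 genes. These points share libraries and depth, and the values are descriptions.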

How the data were processed

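RNA of 15 TG samples was sequenced by an adapted Smart-seq2 protocol (oligo-dT primed, no molecular identifiers). Reads were mapped by the authors to GRCm38 (Rsubread, GENCODE release 22), and the deposited values are raw counts per gene from featureCounts, over exons, without strand. Reads matching several genes were not counted. Symbols came from GENCODE release 21 (99.8% of the identifiers), as did transcripts and the positions of coding bases. Gene positions came from the annotation of the counts, and promoters from RefSeq.

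Counts were tested in edgeR 4.0.16 (R 4.3.3) by the quasi-likelihood test with all 15 samples and 3 groups, TMM scaling and the filter of edgeR (minimum count 10, minimum total 15), with Benjamini-Hochberg adjustment at 0.05. This left 16567 genes. Normalized counts are counts divided by DESeq2 1.42.0 size factors. Alternatives were DESeq2 (all samples or 2 groups), edgeR with 2 groups, RLE scaling, no filter, 10 counts in every sample, removal of the length trend (lowess, span 0.3), leaving out each sample, TMM-scaled counts, TPM and the length of the longest coding transcript. The script was tested on simulated data. Samples were grouped by their labels.

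The members and gene lists were chosen with earlier results of these data known. Named genes are all members, genes overlapping their exons, list genes past the threshold and otherwise the 2 with the smallest p in RvD6-isomer against vehicle, and the 5 most alike genes. Genes sharing sequence with a member were named beside it, and 1 list gene is not reported here. Intervals cover the fit's error only.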

Additional observations from a re-analysis of the deposited data

Results flagged for a closer look

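In 2 of the 27 sets of 5 normalized counts (9 genes in 3 groups), 1 sample lay far from the other 4 by Dixon's test, and chance alone flags about 5% of sets. Both were Atp6v1g2. RvD6-standard replicate 8 had 1914 normalized counts, against 1179 to 1368 in the other 4 samples. RvD6-isomer replicate 11 had 1474, against 995 to 1096. Without RvD6-isomer replicate 11 the log2 fold change of Atp6v1g2 against vehicle was -0.86 and its adjusted p by edgeR 0.0698. Its unadjusted p by edgeR was 3.4e-05 in that fit, against 1.12e-04 with all samples. The calls over all genes were 0 of 17063 in that fit, against 111 of 16567 with all samples.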

How the results depend on the processing

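The number of V1 genes called in RvD6-isomer against vehicle, 1 in the analysis as reported, was 3 with DESeq2 on all samples, 5 with DESeq2 on the 2 groups (Atp6v1a, Atp6v1e1, Atp6v1f, Atp6v1g1 and Atp6v1g2), 2 with 10 counts in every sample, 0 with the length trend removed and 0 to 2 when 1 sample was left out. In RvD6-standard against vehicle it was 1 with DESeq2 on the 2 groups (Atp6v1h, adjusted p = 0.0275). The cause of these moves was not tested. Over all genes, the calls in the 3 comparisons were 111, 0 and 39 of 16567 by edgeR. By DESeq2 they were 920 of 11321, 369 of 19190 and 185 of 19769. In RvD6-isomer against vehicle they were 979 of 11293 with DESeq2 on the 2 groups and 315 of 12128 with 10 counts in every sample. They were 63 of 16567 with the length trend removed and 0 to 229 with a sample left out. In RvD6-standard against vehicle they were 664 of 20069 with DESeq2 and 38 of 15826 with edgeR on the 2 groups. They were 56 of 32699 with no filter, 24 of 12128 with 10 counts in every sample and 0 to 51 with a sample left out. Between the lipids they were 182 and 17 on the 2 groups, 59, 23 and 2 to 156. Of the refitted fold changes 4 changed sign, all with 1 sample left out and all near 0: Atp6v1c1 in RvD6-isomer against vehicle (-0.13 to 0.019), Atp6v1a in RvD6-standard against vehicle (-0.12 to 0.0016) and Atp6v1e1 between the lipids (-0.019 to 0.18, with -0.0098 and -0.019 reversed). TMM-scaled counts moved no group mean by more than 1 SD. TPM kept the order of the vehicle levels, and the longest coding transcript did not. No paired analysis was possible because the groups share no replicate number. Each member had 613 reads or more in every sample, and what share of the spread between samples is counting error was not tested.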

Other observations

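Among marker genes, Elavl4, an RNA-binding protein of neurons, rose in RvD6-isomer against vehicle, from 565 ± 89.8 to 1240 ± 364 normalized counts (SD, n = 5), with a log2 fold change of 1.13 and an adjusted p of 0.0346 by edgeR, while Stmn2 was 15328 ± 1150 and 11844 ± 694 (adjusted p = 0.120). All 6 skeletal muscle markers (Ckm, Mylpf, Tnnt3, Acta1, Myh1 and Myh4) were lower in RvD6-isomer than in RvD6-standard, with log2 fold changes of -6.39 to -4.19. All were called by edgeR, where 0.235% of all genes were. Myh1 and Myh4 overlapped between these groups. The muscle sums were 1575 and 2238 CPM in RvD6-standard replicates 8 and 9, against 75.8 to 310 in the others of that group.

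Osteoclasts carry much V-ATPase. Their marker Ctsk was 88.2 ± 20.5 normalized counts in vehicle, 198 ± 46.5 in RvD6-standard and 85.3 ± 13.0 in RvD6-isomer (SD, n = 5), and passed the threshold between the lipids (adjusted p = 0.0349 by edgeR) but not for RvD6-standard against vehicle (adjusted p = 0.0967). Acp5 was 34.0 ± 31.4, 209 ± 102 and 67.1 ± 74.3 (SD, n = 5), and passed it in no comparison (adjusted p = 0.156 for RvD6-standard against vehicle). Calcr had no read in any sample. Atp6v0d2, the V0 subunit form of osteoclasts and macrophages, was 7.15 ± 8.72 in vehicle, 38.4 ± 18.3 in RvD6-standard and 2.75 ± 3.87 in RvD6-isomer, and its adjusted p between the lipids was 0.239 by edgeR. It was named after its values were seen.

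No other marker passed the threshold. In RvD6-isomer against vehicle, log2 fold changes were -0.40 for Apoe and -0.68 for Glul (satellite glia), 0.83 for Prx and -0.49 for Ncmap (myelinating Schwann cells), -1.34 for Aif1 and 0.96 for Cx3cr1 (macrophages) and -1.68 for Gh and -1.45 for Cga (pituitary). Values above 0 for blood cell markers rested on RvD6-isomer replicate 15. Slc4a1 (erythroid cells) had 1.77 with it and -0.14 without it, Mpo 1.54 and -1.23, and S100a8 1.27 and -1.59 (neutrophils and precursors). With that sample, other erythroid markers were near 0, at -0.01 for Hba-a1 and -0.04 for Alas2. Hba-a1 and Alas2 were named after their values were seen.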
